A study of Mus musculus with 8 samples.

Results

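The miR-182, miR-183 and miR-96 cluster is a group of 3 neighbouring miRNA hairpins that is known from sensory cells and from pluripotent cells. Its members here were the 4 mature strands mmu-miR-182-5p, mmu-miR-183-5p, mmu-miR-183-3p and mmu-miR-96-5p (written without mmu below), taken by name from the miRNA column of each deposited table. All 4 were listed in all 5 tables, which hold up to 1978 mature mouse miRNAs and share 490. Small RNA was sequenced from 8 libraries of 2 mouse cell lines. C2C12 cells are skeletal myoblasts that form myotubes in differentiation medium, and P19 cells are an embryonal carcinoma line. Each condition had 1 library. Differences between conditions therefore have no replicate check, and no p-value is given.

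C2C12 cells were sampled at day 0, in a medium the study's text does not name for these libraries, and at day 3 of differentiation. They carried either shNC, a negative control hairpin, or shPerk, which targets Perk. Perk encodes the kinase PERK, a sensor of stress in the endoplasmic reticulum. Further C2C12 cells carried an empty vector or a vector for ATF4, the transcription factor downstream of PERK, driven by the EF1α promoter. The study kept them in growth medium, under what it calls undifferentiation conditions. It also reports that ATF4 cells fused with each other in this medium and had more MyoD protein, and reads this as started differentiation. P19 cells carried shNC or shPerk, and neither their day nor their induction state stands in the labels. The methods describe stable C2C12 lines made by lentiviral infection and puromycin selection, without saying how the shNC and vector controls were made. Perk and Atf4 mRNA are not measured by small RNA libraries, and neither the knockdown nor the overexpression could be checked here. The study itself reports western blots for the PERK knockdown in both cell lines, and RT-qPCR and western blots for the ATF4 overexpression.

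A miRNA hairpin gives a 5p and a 3p mature strand, of which usually 1 is kept in the Argonaute complex and the other is degraded. The bases from 2 to 8 of the kept strand, the seed, pair with target mRNAs. The 3 hairpins of this cluster are thought to be made from a shared primary transcript, and they are best known for their high level in photoreceptors, hair cells of the inner ear and sensory neurons.

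The mature sequences show how alike the 3 main strands are. All 4 members were matched to RefSeq sequences on GRCm38, where the cluster lies on the minus strand of chromosome 6. They are printed from 5′ to 3′, with the seed in capitals.
miR-183-5p: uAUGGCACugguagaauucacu
miR-96-5p: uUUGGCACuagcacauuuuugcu
miR-182-5p: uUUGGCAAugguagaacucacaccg
miR-183-3p: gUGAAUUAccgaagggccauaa
The seeds of the 3 main 5p strands differed from each other at 1 or 2 bases. Counted from base 1 at the 5′ end, miR-183-5p and miR-96-5p differed by A2U, miR-182-5p and miR-96-5p by A8C, and miR-182-5p and miR-183-5p by U2A and A8C. Set base against base from the 5′ end without gaps, miR-182-5p and miR-183-5p had 18 of 22 bases in common (81.8%). The same count was 13 of 22 for miR-183-5p with miR-96-5p (59.1%) and 12 of 23 for miR-182-5p with miR-96-5p (52.2%). How reads with more than 1 matching miRNA were counted is not given in the sources used here, and misassignment between members was not tested.

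In transcript order the hairpins are Mir183 (chr6:30169668-30169737), Mir96 (chr6:30169446-30169551) and Mir182 (chr6:30165918-30165992), all on the minus strand. The gap between Mir183 and Mir96 is 116 bp and that between Mir96 and Mir182 is 3453 bp, within a span of 3820 bp. In the GENCODE annotation of GRCm38 the hairpins overlap no other gene. The nearest genes are Nrf1, 12459 bp away, and the long noncoding RNA Rncr4, 3155 bp away, both on the plus strand. The mature strands lie at chr6:30169711-30169732 (miR-183-5p), chr6:30169672-30169693 (miR-183-3p), chr6:30169506-30169528 (miR-96-5p) and chr6:30165962-30165986 (miR-182-5p).

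One other mature mouse miRNA of the reference, miR-1271-5p (cUUGGCACcugguaagcacuca, chr13:54578152-54578173, plus strand), shares its seed with miR-96-5p. It had 0 reads in all 4 C2C12 hairpin libraries, which allows at most 0.341 CPM (3 reads of the shallowest library). It is not listed in the RPM tables. No other mature miRNA of the reference shares the seed of miR-182-5p or of miR-183-5p.

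The 4 C2C12 hairpin libraries were deposited as raw counts and held between 8800977 and 11993448 miRNA reads. They are given here as CPM, counts-per-million, over all miRNA reads of the library. The ATF4 pair and the P19 pair were deposited as reads-per-million (RPM) in separate tables of 605 and 696 miRNAs, and their depth is not given. Low RPM values fall on steps that put it at about 10.6 reads per RPM for vector and 12.2 for ATF4 cells. For P19 cells it was about 7.92 with shNC and 4.46 with shPerk. Between 91.3% and 93.8% of the low values lay on these steps, and reads were not recovered exactly. Levels set across tables below come from separately scaled tables. Every interval printed is a 95% Clopper-Pearson interval unless another is named, and covers counting error only, since PCR copies were not marked. The most abundant miRNA was miR-21a-5p in C2C12 libraries, at 18.0% to 26.2% of reads, and miR-302b-3p in P19 libraries.

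The cell lines were checked against marker miRNAs. The muscle miRNAs miR-206-3p, miR-1a-3p, miR-133a-3p and miR-133b-3p summed to between 0.247% and 8.85% of reads in C2C12 libraries. Only 3 of the 4 were listed for P19 cells, and they summed to 0.00345% in shNC and 0.00969% in shPerk cells. The 5 miRNAs of the pluripotency cluster miR-302 and miR-367 summed to 14.1% and 37.6% of the P19 reads. They had 1 read in all among the 4 C2C12 hairpin libraries and are not listed in the ATF4 table. The 6 miRNAs of the list for miR-290-295, another cluster of pluripotent cells, summed to 7.68% and 8.04% of the P19 reads and to at most 0.707 CPM in the C2C12 hairpin libraries.

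miR-182-5p was the most abundant member in 7 of the 8 libraries. In CPM it stood at 8964 in shNC and 3257 in shPerk C2C12 cells at day 0, and at 3588 and 2393 in the same lines at day 3. In RPM it stood at 7217 in vector and 3726 in ATF4 cells, and at 8214 in shNC and 16854 in shPerk P19 cells. The P19 shPerk library was the highest and the C2C12 shPerk library at day 3 the lowest, 7.04 times apart. In the P19 shPerk library miR-182-5p ranked 10 among all miRNAs, and its lowest rank was 45, in C2C12 shPerk cells at day 3.

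miR-183-5p stood at 8566 CPM in shNC and 2592 CPM in shPerk C2C12 cells at day 0, and at 3583 and 1662 CPM at day 3. It stood at 7275 RPM in vector and 3571 RPM in ATF4 cells, and at 4722 and 7509 RPM in shNC and shPerk P19 cells. Its highest level was thus in C2C12 shNC cells at day 0, with a ratio of 5.15 between the highest and the lowest library. The P19 shPerk library came next, above the vector control, across separately scaled tables. In the vector library miR-182-5p was at 0.992 times the level of miR-183-5p. In C2C12 shNC cells at day 3 that ratio was 1.001 (0.988 to 1.015), so the levels there do not differ beyond counting error.

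miR-96-5p, the strand whose seed is best known for hearing loss when mutated, was lower throughout. It stood at 2010 CPM in shNC and 572 CPM in shPerk C2C12 cells at day 0 and at 636 and 540 CPM at day 3. Its RPM was 1169 in vector cells, 826 in ATF4 cells, 886 in shNC P19 cells and 2543 in shPerk P19 cells. The highest and the lowest library were 4.71 times apart.

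miR-183-3p, the strand of the miR-183 hairpin that is mostly degraded, was the scarcest member. It had 329 reads (29.1 CPM) in shNC and 84 reads (9.54 CPM) in shPerk C2C12 cells at day 0, and 95 reads (7.92 CPM) and 32 reads (3.39 CPM) at day 3. It stood at 58.8 RPM in vector, 29.4 RPM in ATF4, 38.9 RPM in P19 shNC and 15.7 RPM in P19 shPerk cells. Its order over the libraries differed from that of the 5p strands: the vector library was the highest, and the P19 shPerk library was below both control P19 and control C2C12 cells at day 0.

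**Figure D1:**
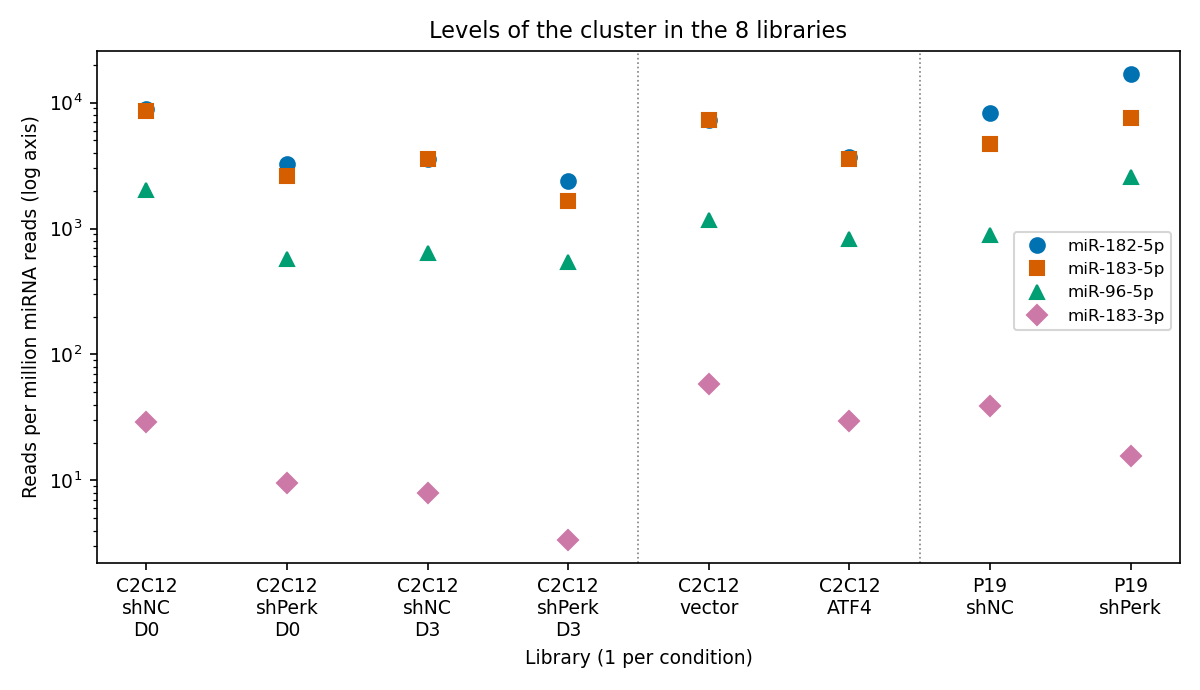
Level of each member in each of the 8 libraries, in CPM or RPM on a log axis, with 1 point per library and dotted lines between separately scaled tables. In the C2C12 tables the 3 main 5p strands sit lower in the shPerk and ATF4 libraries than in their controls (for miR-96-5p at day 3, 540 against 636 CPM, TMM scaling turns the direction), in P19 cells they sit higher in shPerk than in shNC, and miR-183-3p moves the other way in P19 cells, from 38.9 to 15.7 RPM.

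The 3 main strands together took 1.95% of the miRNA reads of C2C12 shNC cells at day 0, 0.642% in shPerk cells at day 0, and 0.781% and 0.460% in shNC and shPerk cells at day 3. They took 1.57% in vector and 0.812% in ATF4 cells. In P19 cells they took 1.38% with shNC and 2.69% with shPerk. The share in both control myoblast libraries of day 0 and vector was thus above that in control P19 cells, although the miR-302 cluster and miR-290-295 were all but absent from the myoblasts.

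The shNC library at day 0 and the vector library are both controls of C2C12 cells, made with different constructs. They show how far these control libraries of this line stood apart, across separately scaled tables. The cells differed in the muscle list too, which summed to 1.92% of reads in shNC and 0.247% in vector cells. Whether construct, culture or scaling lies behind the distances was not tested. From shNC to vector, the log2 level of miR-182-5p differed by -0.31, that of miR-183-5p by -0.24 and that of miR-96-5p by -0.78. The level of miR-183-3p differed by 1.02 on the log2 scale, from 29.1 CPM to 58.8 RPM. A difference of this size between control libraries is as large as the limit used for calls below.

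The first comparison asked what the hairpin against Perk went with in C2C12 cells at day 0. At day 0 all 4 members were lower in shPerk than in shNC C2C12 cells, by 2.51 to 3.20 times. Fold changes are given as log2 of the ratio after TMM scaling, which rests on most miRNAs not differing. Calls were made at log2 fold changes above 1 or below -1. All 4 members were called lower, against 20.3% of the 602 miRNAs that passed the filter of 1 CPM (122 lower and 94 higher). The median of the members was -1.53 and that of all miRNAs -0.056.

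Among the main strands, miR-96-5p differed most, with a log2 fold change of -1.68 (-1.72 to -1.64). It was followed by miR-183-5p at -1.59 (-1.61 to -1.57) and miR-182-5p at -1.33 (-1.35 to -1.31). The 3 intervals do not overlap, so the unequal size is beyond counting error. miR-183-3p had -1.47 (-1.84 to -1.12), an interval that includes the values of all 3 main strands. The members held ranks 61 to 83 from the lowest of the 602 miRNAs. All 4 were called lower under each scaling tried.

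Other miRNAs moved far more between the same libraries. The muscle list was called lower for 3 of 4 miRNAs, with a median log2 fold change of -2.62, and summed to 1.92% in shNC and 0.384% in shPerk cells. Of the 4 miRNAs of the neuronal list, miR-9-5p and miR-9-3p were called higher, with miR-9-5p at 173 and 2641 CPM. The neuron-specific miR-124-3p and miR-137-3p had 0 reads in both libraries, and the 5 miR-200 family members of the epithelial list summed to under 5 CPM in each. The part of these in the lower cluster was not tested.

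The second comparison set the same lines against each other at day 3 of differentiation. There the members no longer moved together: the log2 fold change was -0.78 (-0.80 to -0.75) for miR-183-5p, -0.89 (-1.52 to -0.30) for miR-183-3p, -0.25 (-0.27 to -0.23) for miR-182-5p and 0.097 (0.046 to 0.15) for miR-96-5p. None was called, against 44.9% of 575 miRNAs called in either direction. The median of the members was -0.51 and that of all miRNAs 0.012. Under total counts the median of all miRNAs was -0.32, and miR-183-5p (-1.11) and miR-183-3p (-1.22) were called lower, against 28.9% of miRNAs. That scaling gave 93 higher and 166 lower calls in place of 126 and 132. miR-96-5p stood at -0.24 under total counts and at -0.012 with the upper quartile, so its direction depends on the scaling.

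The muscle list was called lower for 4 of 4 miRNAs at day 3, with a median of -2.88, and summed to 8.85% of reads in shNC and 2.43% in shPerk cells. miR-9-5p and miR-9-3p were again called higher, and the neuronal list summed to 580 and 4195 CPM. The part of either list in the values of the cluster was not tested.

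The third comparison followed the cluster through differentiation of control cells. In shNC cells all 4 members were lower at day 3 than at day 0. The log2 fold change was -1.06 (-1.07 to -1.04) for miR-182-5p, -0.99 (-1.01 to -0.98) for miR-183-5p, -1.39 (-1.43 to -1.36) for miR-96-5p and -1.61 (-1.95 to -1.28) for miR-183-3p. Lower calls were made for 3 of the 4, all but miR-183-5p, against 16.5% of 593 miRNAs. The median was -1.22 for the members and -0.040 for all miRNAs. miR-183-5p lay at the limit, and it was called lower with total counts (-1.26), with the upper quartile (-1.10) and with a filter at 10 CPM (-1.13). Without a filter miR-182-5p stood at -0.96 and was not called.

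Over the same days the 4 muscle miRNAs were all called higher, with a median log2 fold change of 2.76. miR-206-3p went from 18280 to 66926 CPM and miR-1a-3p from 220 to 17292 CPM. Of the neuronal list, miR-9-5p and miR-9-3p were called higher too, with miR-9-5p at 173 and 551 CPM. Levels per cell were not measured. Under total counts the median of all miRNAs was -0.30, with 51 higher and 140 lower calls in place of 74 and 98, and all 4 members were called lower.

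In shPerk cells the main strands stayed nearer to their day 0 level over the same 3 days, after TMM scaling. The log2 fold change was -0.086 (-0.11 to -0.061) for miR-182-5p, -0.28 (-0.31 to -0.25) for miR-183-5p and 0.28 (0.22 to 0.33) for miR-96-5p. The scarce miR-183-3p was called lower at -1.13 (-1.77 to -0.53), from 84 to 32 reads. That is 1 lower call in 4, against 16.9% of 573 miRNAs. The median was -0.18 for the members and -0.046 for all miRNAs. Total counts put the median of all miRNAs at -0.40 and gave 58 higher and 161 lower calls in place of 97 and 97. With them miR-182-5p stood at -0.44, miR-183-5p at -0.64 and miR-96-5p at -0.083. The direction of miR-96-5p thus depends on the scaling here too. The muscle list was called higher for 4 of 4 miRNAs in these cells as well, with a median of 2.64. Here miR-9-5p (0.97) and miR-9-3p (0.54) were not called.

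The difference between both time courses, shPerk minus shNC, was 1.67 (1.60 to 1.74) for miR-96-5p on the log2 scale. It was 0.97 (0.94 to 0.999) for miR-182-5p, 0.71 (0.68 to 0.74) for miR-183-5p and 0.48 (-0.20 to 1.15) for miR-183-3p, with intervals from the delta method on the 4 read counts. The main strands thus differed in this respect beyond counting error, and miR-183-3p did not have the reads to show a difference. These values and the 2 comparisons of shPerk with shNC rest on the same 4 libraries, and are no separate support for each other. Taken as shPerk against shNC at day 3 minus that at day 0, the same contrast came to other values. It was 1.78 for miR-96-5p, 1.08 for miR-182-5p and 0.82 for miR-183-5p, each outside the counting interval above. Each pair of libraries was scaled on its own, and the intervals leave out error of the scaling.

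The fourth comparison used ATF4 cells against vector cells. All 4 members were lower in ATF4 cells: the log2 fold change was -0.96 for miR-183-5p, -0.93 for miR-183-3p, -0.89 for miR-182-5p and -0.44 for miR-96-5p. Each lay within the limit, so none was called, against 23.5% of 605 miRNAs called in either direction. The median was -0.91 for the members and -0.0039 for all miRNAs. With the upper quartile, which put the median of all miRNAs at -0.38, miR-182-5p (-1.27), miR-183-5p (-1.34) and miR-183-3p (-1.31) were called lower, against 20.5% of miRNAs. There were then 53 higher and 124 lower calls in place of 88 and 54. miR-183-5p was also called with total counts (-1.03). These tables give RPM and their depth was only estimated, so no counting interval is printed.

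The muscle list was called higher for 2 of its 4 miRNAs in ATF4 cells, summing to 0.247% in vector and 0.379% in ATF4 cells, with miR-1a-3p at 6.42 and 259 RPM.

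The fifth comparison used P19 cells, in which the 3 main strands were higher with shPerk. The log2 fold change was 2.13 for miR-96-5p, 1.64 for miR-182-5p and 1.27 for miR-183-5p, or 4.36, 3.12 and 2.42 times. These 3 were called higher, against 17.7% of 696 miRNAs, and the median of all miRNAs was -0.044. miR-96-5p held rank 24 from the highest, miR-182-5p rank 44 and miR-183-5p rank 80. miR-183-3p had -0.70 and was not called, and the median over the 4 members was 1.46.

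Between these libraries the 5 miRNAs of the miR-302 cluster went from 14.1% to 37.6% of the reads, and their part in the effect of scaling was not tested. With total counts the median of all miRNAs was -0.65, and 46 were called higher and 247 lower in place of 123 and 123. The log2 fold change was then 1.04 for miR-182-5p, 1.52 for miR-96-5p, 0.67 for miR-183-5p, which was not called, and -1.31 for miR-183-3p, which was called lower. That is 2 members called higher against 6.61% of miRNAs and 1 called lower against 35.5%. The direction of each member was the same under the 4 scalings.

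**Figure D2:**
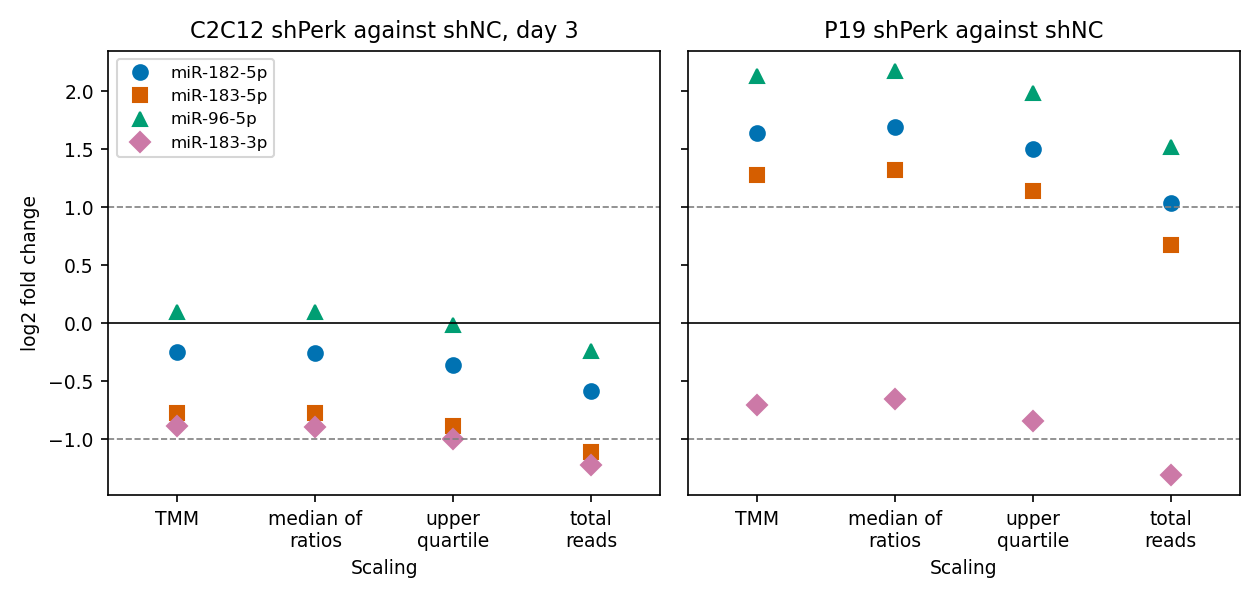
The log2 fold change of each member under 4 scalings of the libraries, for shPerk against shNC in C2C12 cells at day 3 (left) and in P19 cells (right), with the call limits as dashed lines. At day 3 miR-96-5p lies from -0.24 to 0.097 and changes sign, while in P19 cells each member keeps its sign and miR-183-5p comes below the limit with total reads (0.67).

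All 5 miRNAs of the miR-302 cluster were called higher, with a median log2 fold change of 1.85. The miR-290-295 list had 2 higher calls and 1 lower call, miR-290a-5p, among 6, at a median log2 fold change of 0.66. The 5 miRNAs of the miR-200 family, known from epithelial cells, were all called higher, with a median of 2.73, and summed to 317 and 1345 RPM. One of them, miR-141-3p, was listed at 0 in shNC and at 7.18 RPM in shPerk cells, and its call rests on setting 0 to 1 RPM. The neuronal list summed to 3685 and 1518 RPM, with 1 of 3 listed miRNAs called lower, miR-124-3p at 198 and 29.6 RPM. The 3 listed muscle miRNAs were all called higher, from 34.5 to 96.9 RPM in sum, with miR-133b-3p at only 1.14 and 1.79 RPM. With total counts the higher calls numbered 5 of 5 for the miR-302 cluster, 4 of 5 for the miR-200 family (miR-200c-3p at 0.62) and 2 of 3 for muscle (miR-133b-3p at 0.65). The miR-290-295 list then had 0 higher calls and 1 lower, and all 3 listed neuronal miRNAs were called lower. Whether the cells of both libraries were at the same stage is not in the labels, and the part of these lists in the higher cluster was not tested.

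**Figure D3:**
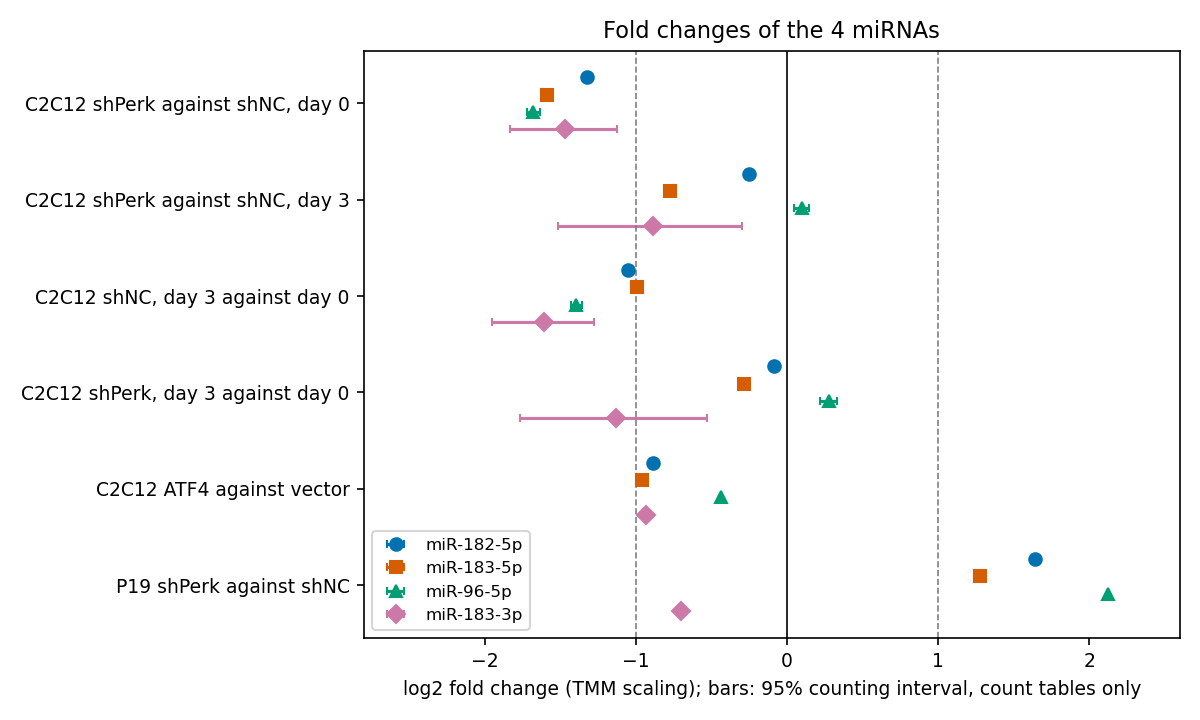
The log2 fold change of each member in the 6 comparisons after TMM scaling, with 95% counting intervals for the count tables and the call limits as dashed lines. All 4 points lie below -1 for shPerk against shNC in C2C12 cells at day 0, and the 3 main strands lie above 1 in P19 cells, at 1.27 to 2.13.

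The makeup of the cluster does not depend on the scaling between libraries. In C2C12 control libraries miR-182-5p and miR-183-5p took nearly equal shares of the summed reads of the 3 main strands. miR-182-5p had 45.9% and miR-183-5p 43.8% in shNC cells at day 0, 46.0% and 45.9% in shNC cells at day 3, and 46.1% and 46.5% in vector cells. ATF4 cells were alike, with 45.9% and 44.0%. In shPerk C2C12 cells the share of miR-182-5p was larger, at 50.7% (50.3% to 51.1%) on day 0 and 52.1% (51.6% to 52.6%) on day 3. The ratio of miR-182-5p to miR-183-5p was 1.05 and 1.26 in shNC and shPerk cells at day 0, and 1.001 and 1.44 at day 3.

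P19 cells had a larger share of miR-182-5p, 59.4% with shNC and 62.6% with shPerk, and a ratio to miR-183-5p of 1.74 and 2.24. The share of miR-182-5p over miR-183-5p was thus higher in the shPerk library of each of the 3 pairs of shNC and shPerk libraries, of which the C2C12 pairs come from the same stable lines.

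miR-96-5p took the smallest share in every library, from 6.41% in P19 shNC to 11.8% in C2C12 shPerk cells at day 3. Its ratio to miR-183-5p, whose hairpin lies 116 bp away, was 0.235 and 0.221 in shNC and shPerk C2C12 cells at day 0. At day 3 the ratio was 0.177 (0.173 to 0.182) in shNC and 0.325 (0.315 to 0.335) in shPerk cells, 1.83 times apart. In P19 cells it was 0.188 with shNC and 0.339 with shPerk, 1.80 times apart. It was 0.161 in vector and 0.231 in ATF4 cells, while the shNC control at day 0 had 0.235, so control C2C12 libraries spanned 0.161 to 0.235.

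**Figure D4:**
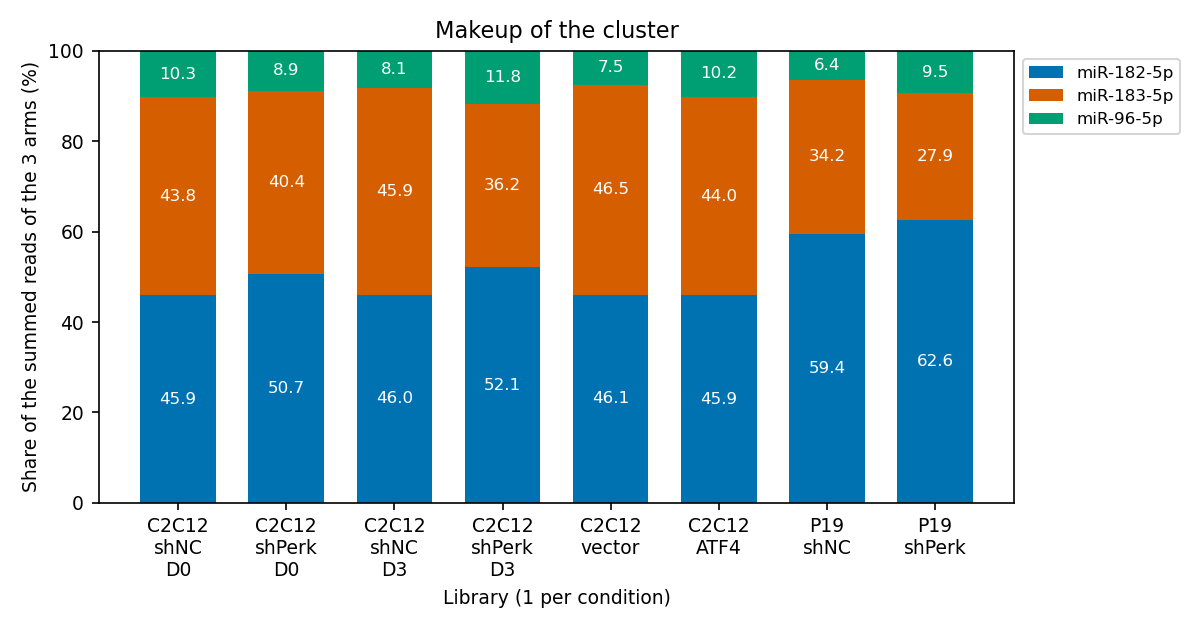
Share of each main strand in the summed reads of miR-182-5p, miR-183-5p and miR-96-5p in each library, in percent. miR-182-5p takes 45.9% to 52.1% in C2C12 libraries and 59.4% and 62.6% in P19 libraries, and miR-96-5p stays at or below 11.8%.

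The passenger strands of the same hairpins were read beside the members, since both strands of a hairpin come from 1 precursor. miR-182-3p (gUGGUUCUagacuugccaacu, chr6:30165923-30165943) had 797 and 363 reads in shNC and shPerk C2C12 cells at day 0 and 217 and 63 reads at day 3. miR-96-3p (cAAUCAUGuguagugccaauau, chr6:30169465-30169486) had 153 and 72 reads at day 0 and 31 and 5 reads at day 3. In the RPM tables miR-182-3p stood at 145 in vector, 64.4 in ATF4, 41.7 in P19 shNC and 42.2 in P19 shPerk cells. miR-96-3p stood at 12.3, 7.48, 11.6 and 5.61 RPM in these. Every passenger strand was thus under 0.0145% of the reads of any library.

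In P19 cells the passenger strands did not follow the main strands. While the 3 main strands were 2.42 to 4.36 times higher with shPerk, the log2 fold change was 0.62 for miR-182-3p, -0.45 for miR-96-3p and -0.70 for miR-183-3p. The number of 5p reads per 3p read went from 197 to 400 for miR-182, from 121 to 478 for miR-183 and from 76.3 to 453 for miR-96. For a background, hairpins were counted when both strands had reads in both libraries and the minor strand reached 1 CPM or RPM in either. Hairpins that lost a strand were left out, so percentiles here and below hold only among those counted. Over 144 such hairpins the ratio of the major to the minor strand had a median log2 change of 0.22 in this pair. It was higher with shPerk in 58.3%. The changes for miR-182 (1.02), miR-183 (1.98) and miR-96 (2.57) lay at percentiles 84.7, 97.9 and 99.3 of these hairpins. The ratios of miR-183 and miR-96 rest on scarce 3p strands and have no counting interval. These strands stood at 15.7 and 5.61 RPM in shPerk cells, about 70 and 25 reads by the estimated depth.

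For shPerk against shNC in C2C12 cells at day 0 the ratios of miR-96 and miR-182 moved the other way than in P19 cells. That of miR-183 did not differ beyond counting error, at 295 (265 to 329) in shNC and 272 (219 to 341) in shPerk cells. The log2 change was -1.09 for miR-96, -0.69 for miR-182 and -0.12 for miR-183, at percentiles 1.60, 12.8 and 38.4 of 125 hairpins with a median of 0.013. At day 3 it was 2.05 for miR-96, 0.85 for miR-182 and 0.11 for miR-183, at percentiles 94.9, 69.5 and 44.1 of 118 hairpins with a median of 0.23. The value for miR-96 rests on 5 reads of miR-96-3p in shPerk cells. The intervals of miR-183 overlapped again, at 452 (370 to 559) in shNC and 490 (347 to 716) in shPerk cells.

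Within C2C12 shPerk cells the ratio was higher at day 3 than at day 0. It was 79.0 (71.2 to 87.8) and 358 (280 to 466) for miR-182, and 69.9 (55.4 to 89.5) and 1018 (436 to 3138) for miR-96, the latter from 5 reads of miR-96-3p. For miR-183 it was 272 (219 to 341) and 490 (347 to 716). The median over 117 hairpins was a log2 change of 0.28, with miR-182 (2.18) at percentile 96.6, miR-96 (3.86) at 99.1 and miR-183 (0.85) at 70.1. In shNC cells the ratios were 127, 295 and 149 for miR-182, miR-183 and miR-96 at day 0 and 198, 452 and 246 at day 3, with log2 changes at percentiles 79.0, 77.3 and 82.4 of 119 hairpins. In ATF4 against vector cells the ratios stayed close: 49.9 and 57.8 for miR-182, 124 and 121 for miR-183, and 95.1 and 110 for miR-96, at percentiles 55.4, 34.8 and 56.3 of 112 hairpins.

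Between the control libraries of C2C12 cells, shNC at day 0 and vector, the ratio itself differed: 127 and 49.9 for miR-182, 295 and 124 for miR-183, and 149 and 95.1 for miR-96. The strand ratio thus differed by up to 2.55 times between control libraries of the same line, which also differed in construct and in muscle miRNAs.

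**Figure D5:**
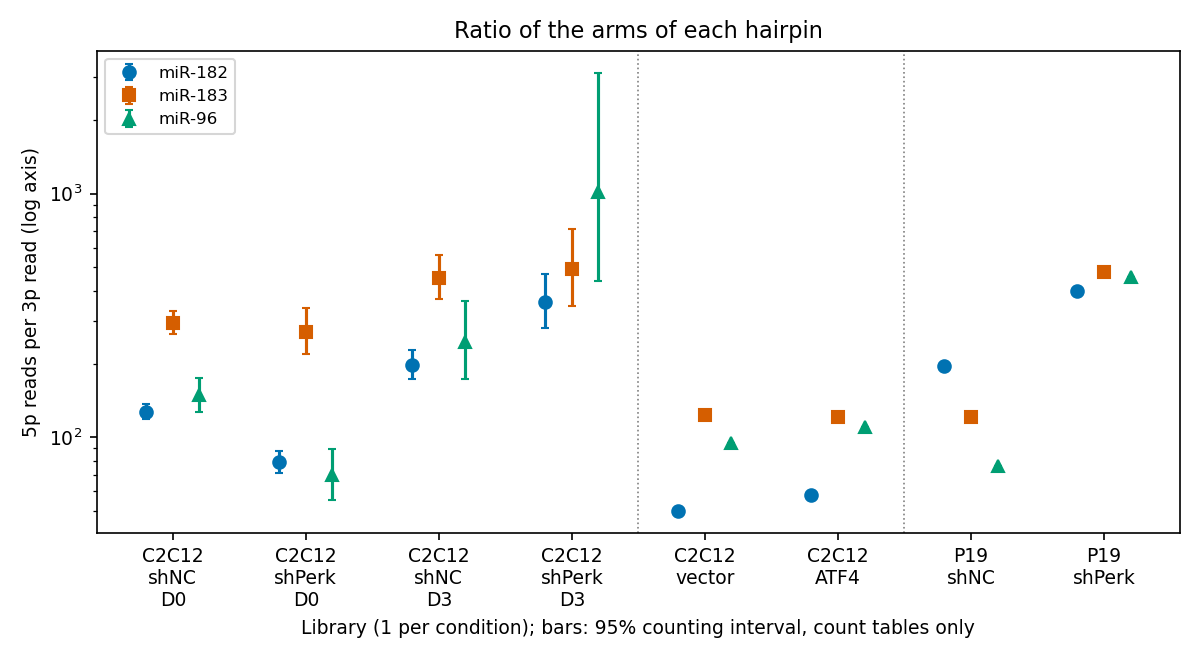
Number of 5p reads per 3p read for the miR-182, miR-183 and miR-96 hairpins in each library, on a log axis, with 95% counting intervals for the count tables. The 3 ratios are higher in P19 shPerk than in P19 shNC cells (from 76.3 to 453 for miR-96), and the widest interval belongs to miR-96 in C2C12 shPerk cells at day 3, with 5 reads of the 3p strand.

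The profile of the 3 main strands in sum over the 8 libraries was compared with that of 366 other miRNAs listed in all tables and averaging 10 CPM or RPM or more. The measure was the root mean square distance between log2(level + 1) profiles, each centred on its own mean. The nearest miRNAs were miR-148b-5p at 0.47, miR-3066-5p at 0.47 and miR-677-5p at 0.48, where the median distance was 1.32. Like the cluster, miR-677-5p was highest in P19 shPerk cells (58.6 RPM) and lowest in C2C12 shPerk cells at day 3 (3.39 CPM). The members themselves lay at 0.17 (miR-182-5p), 0.24 (miR-183-5p), 0.26 (miR-96-5p) and 0.89 (miR-183-3p), where the first 3 are part of the sum and lie near it by construction. All 3 of the nearest miRNAs are scarce, and with 10 added in place of 1 only miR-677-5p was still among the nearest 3, beside miR-130a-5p and miR-466i-5p.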

How the data were processed

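Small RNA libraries were made by linker ligation at both ends, reverse transcription, PCR and gel selection, and the authors annotated reads with bowtie, whose version is not given in the sources used here. The submitters' processing notes name the builds mm10 and GRCm38. The authors deposited raw read counts per mature miRNA for the C2C12 hairpin libraries (4 libraries), and RPM values for the ATF4 and P19 pairs. The deposited tables also hold the authors' log2 fold changes, p-values and q-values, which were not used. The shNC columns that stand in 2 tables were identical and were counted once.

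The members and lists were chosen with earlier results of these data known. A miRNA was kept when either library of a comparison had at least 1 CPM or RPM of it. Log2 fold changes used TMM factors (edgeR 4.0.16) and a prior count of 0.125. On RPM tables TMM was computed from the RPM values and values at 0 were set to 1 RPM. The design had assumed counts where possible, and calls rest on the fold limit in all tables. The fit for counts was also tested on a simulated pair of libraries with Poisson noise, which does not cover the RPM tables. The miRNAs named are the 4 members, the other strands of their hairpins, miRNAs with the same seed, the 3 nearest in profile, and the marker lists. The comparison of strand ratios with the other hairpins counted was added after the data were seen. So were the reading of the control libraries against each other, the other scalings of the difference between time courses and the list calls with total counts. Alternatives were scaling by total counts, by the median of ratios (DESeq2 1.42.0) and by the upper quartile, other filters and prior counts, 1 RPM added to both values, and an exact binomial p on top of the fold limit. The work was done in R 4.3.3 and Python 3.11.15, with scipy 1.17.1, pandas 2.3.3, numpy 2.4.6 and, for plots, matplotlib 3.10.9. Sequences and positions came from RefSeq and GENCODE on GRCm38.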

Additional observations from a re-analysis of the deposited data

Results flagged for a closer look

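After TMM scaling, some log2 fold changes had opposite signs in different settings. Each condition had 1 library, so none of these differences was tested. For miR-96-5p in C2C12 cells the log2 fold change of shPerk against shNC was -1.68 at day 0 and 0.097 at day 3, a difference of 1.78, and the sign at day 3 turned with total counts (-0.24) and with the upper quartile (-0.012). The change of miR-96-5p from day 0 to day 3 was -1.39 in shNC and 0.28 in shPerk cells, a difference of 1.67. That is the same contrast of the same 4 libraries as the 1.78, scaled in other pairs. With total counts the change in shPerk cells was -0.083.

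Between cell lines, the log2 fold change of shPerk against shNC in P19 cells minus that in C2C12 cells at day 0 was 2.97 for miR-182-5p, 2.87 for miR-183-5p and 3.81 for miR-96-5p. Against C2C12 cells at day 3 it was 1.89 for miR-182-5p and 2.05 for miR-183-5p. The directions were lower in C2C12 and higher in P19 cells under each of the 4 scalings.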

How the results depend on the processing

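Of 257 values under other settings, 207 stayed on the same side of the fold limit or close to the reported value, 36 moved, 12 passed the limit and 2 no longer passed it. No called value turned its direction. With total counts miR-183-5p (-1.11) and miR-183-3p (-1.22) were called lower between shPerk and shNC C2C12 cells at day 3, where miR-96-5p stood at -0.24 and, with the upper quartile, at -0.012. For day 3 against day 0 in shNC cells miR-183-5p was called with total counts (-1.26), the upper quartile (-1.10) and a filter at 10 CPM (-1.13), and miR-182-5p was not called without a filter (-0.96). In shPerk cells miR-96-5p stood at -0.083 with total counts and miR-182-5p at 0.0020 without a filter. In ATF4 cells the upper quartile gave -1.27 for miR-182-5p, -1.34 for miR-183-5p and -1.31 for miR-183-3p, total counts gave -1.03 for miR-183-5p, and a filter at 10 RPM gave -1.05 for miR-183-5p and -1.02 for miR-183-3p. In P19 cells total counts gave 0.67 for miR-183-5p and -1.31 for miR-183-3p. The difference between time courses with total counts, a setting added after the data were seen, was 0.88 for miR-182-5p, 0.62 for miR-183-5p and 1.58 for miR-96-5p. Why these values moved was not tested beyond the shift of the median of all miRNAs.

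Counts of miRNAs called higher and lower depended on the filter. Without a filter they were 220 and 368 for the Perk hairpin in C2C12 cells at day 0, 268 and 359 for it at day 3, 249 and 307 for day 3 against day 0 in shNC cells and 257 and 254 in shPerk cells. With a filter at 10 they were 47 and 79, 79 and 84, 42 and 48, and 62 and 42, and 52 were called higher in ATF4 cells. With total counts they were 58 and 161 for shPerk cells over time and 46 and 247 for P19 cells, and with the upper quartile 53 and 124 for ATF4 cells. When all strands of the hairpins were summed, the shares over the libraries ran from 45.3% to 62.5% for miR-182-5p, from 27.8% to 45.8% for miR-183-5p and from 6.37% for miR-96-5p. With 10 added to levels, 1 of the 3 nearest miRNAs was shared.

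No paired analysis was possible because each condition has 1 library, and for the same reason none was left out. Counting intervals leave out the spread between cultures, and the depth of the RPM tables is not given and was only estimated from the steps of their low values. Values of miR-183-3p and the passenger strands rest on fewer reads than those of the main strands. In the count libraries they ran from 5 reads of miR-96-3p in shPerk cells at day 3 to 797 of miR-182-3p in shNC cells at day 0.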
